A study of Homo sapiens with 3 samples.

Results

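The 31 genes described here are lysosomal proteases, lysosomal membrane proteins and other soluble lysosomal proteins, taken by symbol from a table of 61550 human genes. They were chosen as a list of lysosomal genes, with no measured value in the rule but with earlier results of these data known. Of them, 3 that interferon is known to induce or that mark immune cells (IFI30, LAMP3 and CD68) were kept apart from the other 28. RNA was sequenced from HK1, an established nasopharyngeal carcinoma cell line, after its cells had been kept together with activated CD8+ T cells, to ask how the transcription factor FLI1 acts in the tumour cell. There were 2 FLI1-knockout (KO) libraries, labelled sgFLI1-1 and sgFLI1-2 after the guide RNA used, and they were set against 1 wild-type (WT) library. All 3 libraries came from cells exposed to T cells, so no unexposed sample was part of the comparison. The labels do not say whether a KO library came from a clone or a pool, nor that the libraries came from separate cultures.

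Lysosomes are acidic compartments in which proteases, glycosidases, sulfatases and lipases break down material delivered by endocytosis and autophagy. Most cathepsins are cysteine proteases that are made as inactive precursors and cut into active enzymes inside the compartment. In cells that present antigen, the same enzymes process the invariant chain and cut proteins into peptides for MHC class II, and IFI30, a thiol reductase better known as GILT, opens the disulfide bonds of those proteins.

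Total counts were between 22172158 and 23904587 per library, and mitochondrial genes took 1.02% to 1.09% of them. FLI1 itself had 11 counts in the sgFLI1-1 library and 109 in the one labelled sgFLI1-2, against 125 in WT (log2 fold change −1.09, SE 0.84, adjusted p = 0.515 by edgeR). FLI1 mRNA was therefore low in only 1 of the 2 KO libraries, and this mRNA does not measure the protein. Of the epithelial markers, KRT8 had 47902 and 44097 counts in the KO libraries and 40248 in WT, whereas KRT5 and TP63 had at most 8 counts in any library. KRT19, a keratin of simple epithelia, fell to 34 and 86 counts in the KO libraries, against 330 in WT (log2 fold change −2.50, SE 0.46, adjusted p = 0.00817 by edgeR). KRT19 and EGFR were the 2 of 8 epithelial markers tested that passed the adjusted p, both lower in KO, and their part in the lysosomal results was not tested. Of 17 T cell markers 15 were at 0 in every library, and the list summed to 6 and 13 counts in the KO libraries and 9 in WT. Of 15 myeloid and dendritic markers 7 were at 0 in every library, and CD83 was the only 1 above 50 counts, with 808 and 750 in the KO libraries and 519 in WT. In bulk RNA, fewer cells of a type and less RNA per cell cannot be told apart.

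The promoters of IFI30 and CD68 from the RefSeq table (GRCh38.p14) are shown first, because these genes were 2 of the 3 called lower in KO. Those of LAMP1 and CTSD are shown beside them for the E-box CACGTG, the core of the CLEAR motif through which TFEB and its relatives act on lysosomal genes, and were picked after the matches had been seen. Each line gives the 250 bases upstream of the RefSeq start, 5′ to 3′ on the gene's strand, with CACGTG in capitals. The windows are chr19:18173563-18173812 for IFI30 (plus strand), chr17:7579388-7579637 for CD68 (plus), chr13:113296989-113297238 for LAMP1 (plus) and chr11:1763928-1764177 for CTSD (minus).
IFI30: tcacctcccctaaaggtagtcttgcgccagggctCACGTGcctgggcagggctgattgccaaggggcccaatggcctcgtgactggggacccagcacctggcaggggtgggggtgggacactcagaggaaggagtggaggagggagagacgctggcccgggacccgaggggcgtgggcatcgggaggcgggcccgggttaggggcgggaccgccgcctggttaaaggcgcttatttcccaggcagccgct
CD68: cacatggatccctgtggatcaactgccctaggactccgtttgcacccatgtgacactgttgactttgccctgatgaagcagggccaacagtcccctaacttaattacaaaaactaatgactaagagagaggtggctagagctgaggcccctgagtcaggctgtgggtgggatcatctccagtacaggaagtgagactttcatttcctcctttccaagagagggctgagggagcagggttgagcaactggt
LAMP1: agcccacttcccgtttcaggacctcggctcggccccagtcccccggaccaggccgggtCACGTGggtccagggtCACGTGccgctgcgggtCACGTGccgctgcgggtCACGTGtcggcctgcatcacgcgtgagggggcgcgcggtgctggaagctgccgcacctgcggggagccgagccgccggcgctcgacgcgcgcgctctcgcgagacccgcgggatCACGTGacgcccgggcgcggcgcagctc
CTSD: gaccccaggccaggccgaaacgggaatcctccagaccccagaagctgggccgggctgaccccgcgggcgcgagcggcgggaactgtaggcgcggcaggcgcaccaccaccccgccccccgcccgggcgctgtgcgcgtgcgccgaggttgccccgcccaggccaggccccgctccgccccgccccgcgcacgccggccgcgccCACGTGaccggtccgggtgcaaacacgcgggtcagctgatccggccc

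Of the 31 genes 22 had a promoter in that table, and ARSA, ASAH1, CTSB, CTSK, CTSO, HEXA, LAMP2, LAMP3 and LGMN did not. The window searched ran from 250 bases before to 50 bases after the start, on both strands. CACGTG was found in 9 of the 22 promoters (CD63, CTSA, CTSD, CTSF, GAA, IFI30, LAMP1, MCOLN1 and NEU1), against 7.43% of 27305 RefSeq promoters of the same length. LAMP1 held 6 copies, 5 of them within the bases printed, and IFI30 held 1, at positions −216 to −211 from the start. CD68 had no match to it. An interferon-stimulated response element, searched as TTTC, any 2 bases and TTTC, was found in 0 of the 22, against 3.65% of all promoters. A gamma-activated site, searched as TTC, any 3 bases and GAA, was found in ARSB alone, against 7.88% of all promoters. An ETS site, of the kind that FLI1 and its relatives bind, was searched only as the exact letters CCGGAA followed by GT. That string was found in 0 of the 22, against 4.44% of all promoters. The search misses near strings, such as CAGGAA followed by GT, which the CD68 bases printed above hold. It therefore does not show that ETS sites are absent from these promoters. All the motif results here are matches of letters in short windows and not binding data.

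The genes fell over a wide range of levels, as the plot of level by library shows. FPKM corrects for the length of a gene as well as for library size and so allows genes to be set beside each other. IFI30 in WT reached 264 FPKM, and CTSD in the library labelled sgFLI1-1 reached 219 FPKM, while CTSK, CTSH and CTSF stayed under 0.4 FPKM in every library. The 31 genes summed to 1418 and 1349 FPKM in the KO libraries and 1559 FPKM in WT, or 0.324% and 0.317% of all FPKM in the KO libraries and 0.375% in WT. Without IFI30, LAMP3 and CD68 the sums were 1330 and 1271 FPKM in the KO libraries and 1287 FPKM in WT, so that WT lay between the KO libraries.

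**Figure D1:**
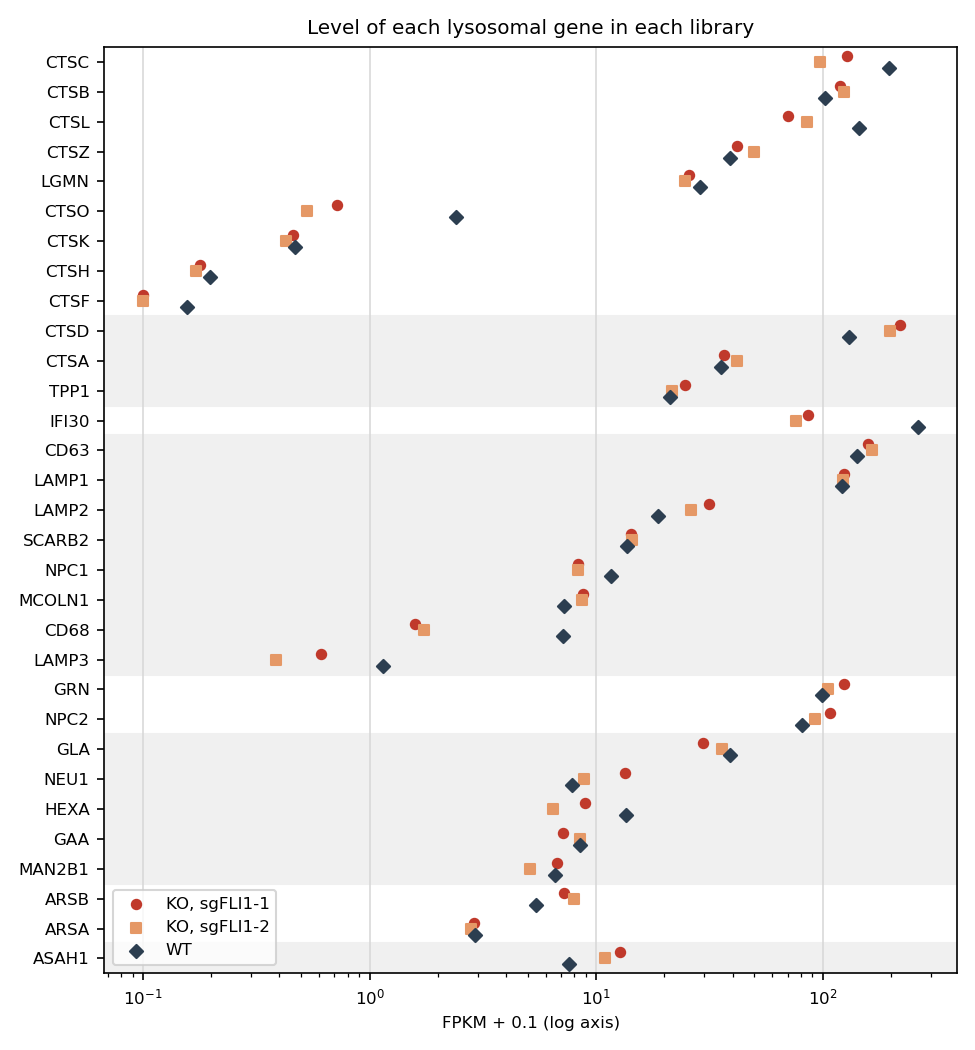
Level of each of the 31 lysosomal genes in each library, as FPKM + 0.1 on a log axis, with genes grouped by role in shaded blocks. Circles are the library labelled sgFLI1-1, squares sgFLI1-2 and diamonds WT. IFI30 stands at 86.0 and 75.9 FPKM in the KO libraries and 264 FPKM in WT, whereas the points of LAMP1 lie on top of each other between 122 and 124 FPKM.

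Of the 31 genes 29 passed the filter on low counts and were tested, and 3 of these were lower in KO at an adjusted p under 0.05 and at least 2-fold by edgeR (IFI30, CD68 and CTSO, or 10.3%). Across all 15483 genes tested, 457 were called lower (2.95%). None of the 29 was called higher by edgeR (0, with 4 at an unadjusted p under 0.05, and 0 by DESeq2), where 283 of all tested genes were (1.83%). On the adjusted p alone, 5 of the 29 passed (17.2%), all of them lower in KO, which added CTSC and CTSL. The corresponding share of all tested genes was 6.88%. With median-of-ratios size factors in edgeR 7 passed, among them CTSD and ASAH1, which were higher in KO. Both KO libraries lay below WT for 13 genes and above WT for 12, beside shares of 40.9% and 38.3% of all tested genes for below and above.

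The median log2 fold change of the 29 was −0.04, beside 0.00098 for all genes tested. The 3 interferon-linked genes all had a lower level in both KO libraries. The other 26 tested had a median log2 fold change of 0.03, with 14 positive and 12 negative, and only CTSO among them was called. For 21 of the 24 genes that missed the adjusted p, the 95% interval of the fold change lay inside 2-fold in either direction. The edgeR calls rest on the filter on low counts, because without it 0 of the 31 genes passed the adjusted p by edgeR, although 11 still had an unadjusted p under 0.05. DESeq2 was run without that filter but with its own default filter on mean count. It called 3 genes lower and had 6 past the adjusted p, among them CTSD, which was higher in KO. The calls of both tools rest on 1 WT library, whose own spread could not be measured and was assumed to be that of the KO pair.

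**Figure D2:**
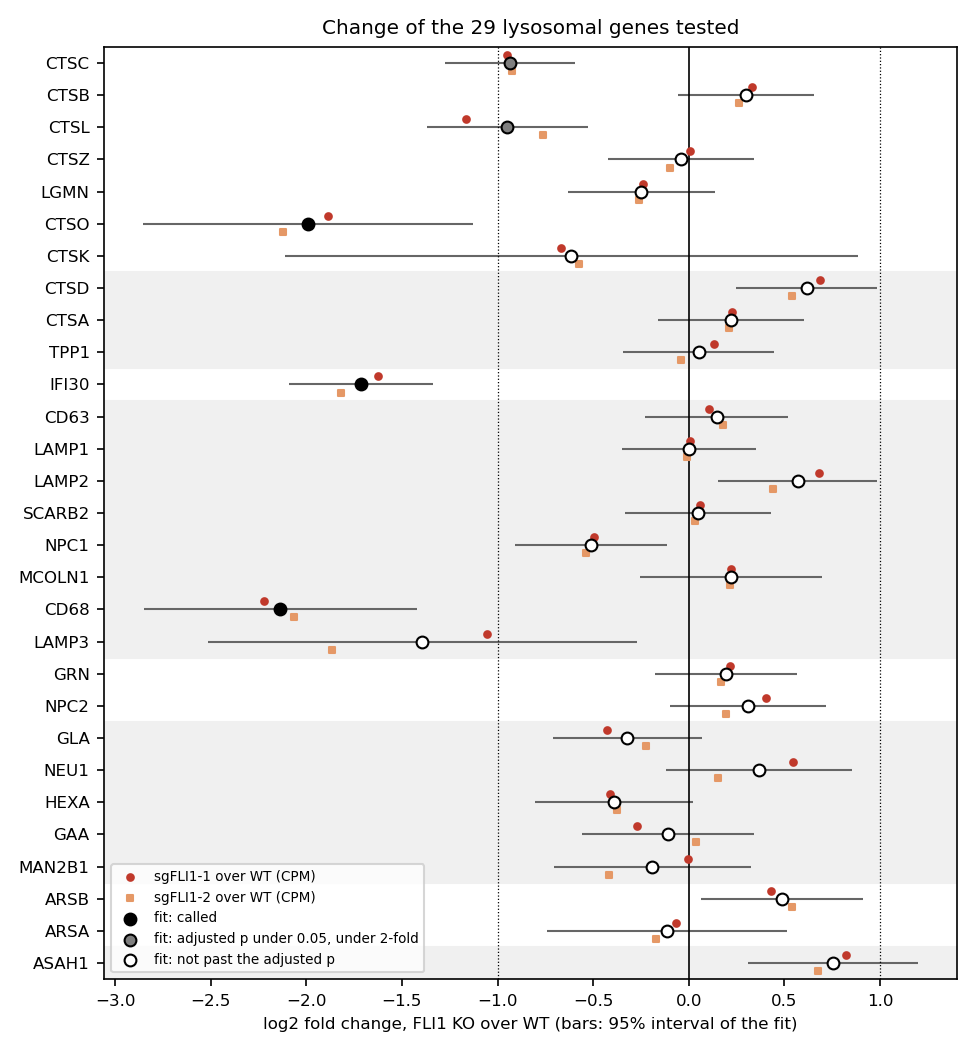
Log2 fold change of the 29 lysosomal genes tested, KO over WT, grouped by role in shaded blocks. Large points are the edgeR estimate with its 95% interval (black called, grey past the adjusted p only, white not past it), small circles and squares are each KO library's ratio to WT in counts scaled to library size, and dotted lines mark 2-fold. CD68, CTSO and IFI30 stand at −2.14, −1.99 and −1.71, while most other genes lie near 0.

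IFI30 (chr19:18173162-18178117), the thiol reductase of antigen processing and a gene that interferon-γ induces, fell 3.28-fold in KO cells. Counts were 2273 for sgFLI1-1 and 1863 for sgFLI1-2, against 6498 for WT. In FPKM these levels were 86.0 and 75.9 in the KO libraries and 264 in WT. Both KO libraries were far below WT, and they differed from each other by a smaller amount that still exceeded counting error. The log2 fold change was −1.71 (SE 0.17, 95% interval −2.09 to −1.34, adjusted p = 0.000167 by edgeR). The ratio to WT of counts scaled to library size was −1.62 on the log2 scale for sgFLI1-1 (95% exact interval −1.69 to −1.55) and −1.82 for sgFLI1-2 (−1.89 to −1.74), intervals that cover counting error only. A same-strand gene without a symbol in the table, ENSG00000268173, spans IFI30 and shares 42.5% of its exonic bases in GENCODE v44, with 3 and 627 counts in the KO libraries and 1445 in WT. With both added together, the counts were 2276 and 2490 in the KO libraries and 7943 in WT, and the call held (log2 fold change −1.79, SE 0.17, adjusted p = 0.000107 by edgeR). This sum was added after the data had been seen. In it sgFLI1-2 lay above sgFLI1-1, the reverse of their order for IFI30 alone. How reads were divided between these genes is not given, so the difference between the KO libraries is uncertain.

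CD68 (chr17:7579491-7582111) encodes macrosialin, a heavily glycosylated relative of the LAMP proteins that is used as a macrophage marker. It had 68 and 71 counts in the KO libraries, against 294 in WT. In FPKM it stood at 1.49 and 1.64 in the KO libraries and 7.02 in WT. The KO libraries did not differ from each other beyond counting error, and CD68 was lower by a factor of 4.40 in KO (log2 fold change −2.14, SE 0.32, adjusted p = 0.00249 by edgeR). A same-strand long noncoding RNA, ENSG00000264772, shares 81.6% of the exonic bases of CD68 in GENCODE v44 and had 622 and 893 counts in the KO libraries and 1075 in WT. When its counts were added, the sums were 690 and 964 in the KO libraries and 1369 in WT, the log2 fold change was −0.78 (SE 0.23) and the call was lost (adjusted p = 0.0695 by edgeR). How reads were divided between these genes is not given, so the value for CD68 is uncertain.

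LAMP3 (chr3:183122215-183163839), the LAMP protein of mature dendritic cells that interferon also induces in other cells, was a rare transcript here. It had 43 and 23 counts in the KO libraries and 83 in WT, or 0.511 and 0.288 FPKM in the KO libraries and 1.05 FPKM in WT. Both KO values were below WT, but the difference did not pass the test (log2 fold change −1.39, SE 0.51, 95% interval −2.52 to −0.27, adjusted p = 0.148 by edgeR). The interval runs from a small difference to one of more than 4-fold. Beside these 3 genes, the 15 myeloid and dendritic markers summed to 917 and 826 counts in the KO libraries and 602 in WT. Without CD83 the other 14 summed to 109 and 76 counts in the KO libraries and 83 in WT, so that WT lay between the KO libraries.

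Cysteine cathepsins were the role group with most genes below WT. Of 9 genes 7 were tested, 6 of them had a negative log2 fold change, and CTSC, CTSL and CTSO passed the adjusted p. Over all genes tested, 7730 of 15483 had a negative log2 fold change and 6.88% passed the adjusted p. The 6 include CTSZ at −0.04, whose sign changes with a KO library left out. The summed level of the 9 was 385.8 and 380.7 FPKM in the KO libraries and 514.4 FPKM in WT, as drawn in the plot of summed levels by role. Without CTSC and CTSL the other 7 summed to 187.7 and 199 FPKM in the KO libraries, against 172.8 FPKM in WT, so those 2 genes carried the lower sum.

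**Figure D3:**
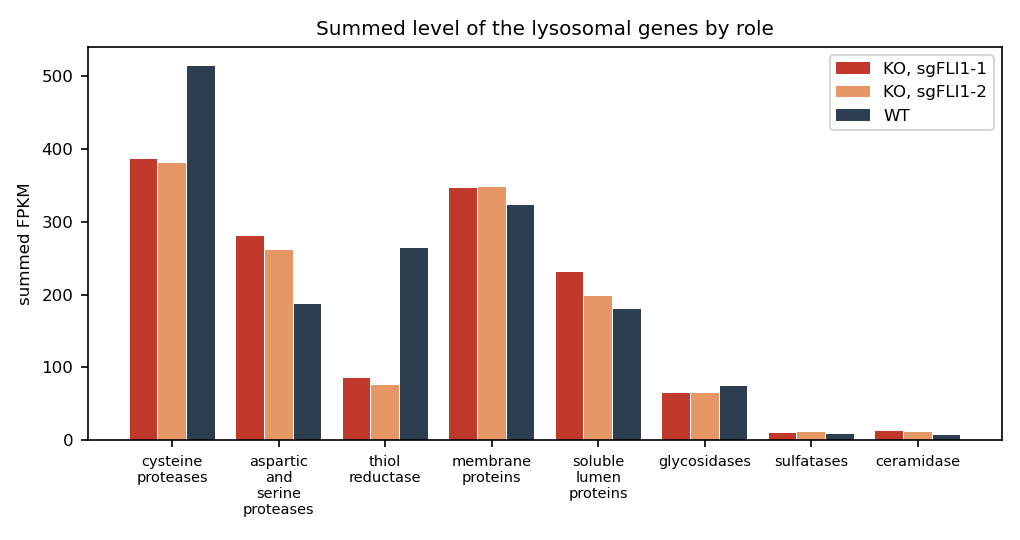
Summed FPKM of the lysosomal genes of each role in each library, as bars from 0, with the KO libraries labelled sgFLI1-1 and sgFLI1-2 left of WT. Cysteine proteases and the thiol reductase IFI30 are lower in both KO libraries than in WT, aspartic and serine proteases are higher (280.3 and 261.1 against 187.4 FPKM), and membrane proteins differ little (346.3 and 347.3 against 322.6 FPKM). The bars are single libraries and carry no error bar.

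CTSC (chr11:88265069-88359684), a dipeptidyl peptidase that activates granule serine proteases in immune cells, had 6536 and 6249 counts in the KO libraries, against 11720 in WT. In FPKM it stood at 128 and 96.8 in the KO libraries and 196 in WT. It was 1.91-fold lower in KO (log2 fold change −0.93, SE 0.15, adjusted p = 0.00406 by edgeR), just short of the 2-fold threshold. The log2 ratios to WT were −0.95 for sgFLI1-1 and −0.92 for sgFLI1-2 in counts scaled to library size. On the log2(FPKM + 1) scale the changes were −0.61 and −1.01, so the KO libraries lay further apart in FPKM. The 9 expressed genes within 5 Mb of CTSC had median log2(FPKM + 1) changes of 0.34 and 0.16 in the KO libraries. Whether position had a part in the CTSC change was not tested. CTSL (chr9:87724051-87731469), a broad endopeptidase that also processes the invariant chain in some cells, had 3035 and 3772 counts in the KO libraries and 6321 in WT. Its levels were 70.1 and 84.9 FPKM in the KO libraries and 145 FPKM in WT. It was 1.93-fold lower (log2 fold change −0.95, SE 0.19, adjusted p = 0.0130 by edgeR). The KO libraries differed from each other by more than counting error, at log2 ratios to WT of −1.17 (95% exact interval −1.23 to −1.10) for sgFLI1-1 and −0.76 (−0.82 to −0.70) for sgFLI1-2.

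CTSO (chr4:155921580-155953912), a papain-family cathepsin, was much rarer. It had 49 and 39 counts in the KO libraries, against 168 in WT, or 0.617 and 0.432 FPKM in the KO libraries and 2.30 FPKM in WT. The KO libraries overlapped in their counting intervals, and CTSO was lower by a factor of 3.98 in KO (log2 fold change −1.99, SE 0.39, adjusted p = 0.0115 by edgeR, and 0.0499 by DESeq2). The 6 expressed genes within 5 Mb had median log2(FPKM + 1) changes of 0.30 and 0.07 in the KO libraries. Within 2 Mb there was only 1 such gene, with changes of −0.08 and 0.04. At this level CTSO added little to the summed level of cysteine proteases, and its percentile by mean FPKM among genes tested was 27.2, beside 96.9 for CTSC and 95.4 for CTSL.

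The other cysteine proteases did not pass the test. CTSB, an exo- and endopeptidase and the most abundant of these, had 119 and 124 FPKM in the KO libraries and 102 FPKM in WT (log2 fold change 0.30, SE 0.16, adjusted p = 0.328 by edgeR). The log2 fold change was −0.04 for the carboxypeptidase CTSZ, −0.25 for the asparaginyl endopeptidase LGMN and −0.62 for CTSK, the collagen-degrading cathepsin of osteoclasts. CTSZ overlaps NELFCD on the opposite strand, and on the log2(FPKM + 1) scale its change was 0.23 in place of −0.04. CTSK rested on 19 counts in each KO library and 28 in WT, with an interval from −2.11 to 0.88. CTSH had 9 and 7 counts in the KO libraries and 5 in WT, and CTSF had 0 in both KO libraries and 5 in WT. Neither was tested, and no difference in them was detectable at this depth.

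None of the aspartic and serine proteases passed the adjusted p by edgeR (0 of 3, with 1, CTSD, at an unadjusted p under 0.05, and 1 past the adjusted p by DESeq2). CTSD (chr11:1752752-1764573), the main aspartic protease of the lysosome, had 11222 and 9526 counts in the KO libraries, against 6480 in WT. Its levels were 219 and 198 FPKM in the KO libraries and 131 FPKM in WT, which made it the most abundant of the 31 genes in each KO library. Both KO libraries were above WT (log2 fold change 0.62, SE 0.17, adjusted p = 0.0527 by edgeR). DESeq2 gave an adjusted p of 0.0164, and edgeR with median-of-ratios size factors gave 0.0381. The side of the threshold therefore depended on the tool and on the scaling. The serine carboxypeptidase CTSA, which protects NEU1 in a complex, had a log2 fold change of 0.22, and the tripeptidyl peptidase TPP1 had 0.05, which changes sign with a KO library left out. The 3 summed to 280.3 and 261.1 FPKM in the KO libraries and 187.4 FPKM in WT, and CTSD accounted for most of the gap.

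Of the 8 proteins of the lysosomal membrane, CD68 was the only one past the adjusted p. LAMP1, a main glycoprotein of that membrane, had 8910 and 8275 counts in the KO libraries and 8232 in WT, or 124 and 123 FPKM in the KO libraries and 122 FPKM in WT. Its log2 fold change was 0.0016 (SE 0.16, 95% interval −0.35 to 0.35, adjusted p = 0.996 by edgeR), and its sign changes with the filter and with a KO library left out. The tetraspanin CD63, the most abundant of the group, had 4033 and 3983 counts in the KO libraries and 3478 in WT, or 158 and 165 FPKM in the KO libraries and 142 FPKM in WT (log2 fold change 0.15, SE 0.17, adjusted p = 0.681 by edgeR). For SCARB2, the receptor that carries β-glucocerebrosidase, the log2 fold change was 0.05, and for the calcium channel MCOLN1 it was 0.22. LAMP2, which serves in chaperone-mediated autophagy, had 31.3 and 26.1 FPKM in the KO libraries and 18.7 FPKM in WT (log2 fold change 0.57, SE 0.19, adjusted p = 0.113 by edgeR). NPC1, which exports cholesterol across the membrane, had 8.19 and 8.22 FPKM in the KO libraries and 11.5 FPKM in WT (log2 fold change −0.51, SE 0.18, adjusted p = 0.133 by edgeR). It overlaps RMC1 on the opposite strand. For NPC1 and LAMP2 the 95% intervals excluded 0 and 2-fold alike, but the adjusted p did not pass.

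Of the soluble lumen proteins, GRN, the precursor of granulins, had 5505 and 5000 counts in the KO libraries and 4399 in WT, or 124 and 106 FPKM in the KO libraries and 99.4 FPKM in WT (log2 fold change 0.20, SE 0.17, adjusted p = 0.563 by edgeR). NPC2, which hands cholesterol to NPC1, had a log2 fold change of 0.31 and did not pass either. The glycosidases summed to 65.4 and 64.2 FPKM in the KO libraries and 75.1 FPKM in WT, with 0 of 5 past the adjusted p by edgeR, 0 at an unadjusted p under 0.05 and 0 by DESeq2. Their most abundant member was GLA, the α-galactosidase deficient in Fabry disease, with 1310 and 1415 counts in the KO libraries and 1635 in WT, or 29.5 and 35.7 FPKM in the KO libraries and 39.1 FPKM in WT. Its log2 fold change was −0.32 (SE 0.18, adjusted p = 0.340 by edgeR), and it overlaps RPL36A on the opposite strand. Log2 fold changes were 0.37 for the sialidase NEU1, −0.11 for the acid α-glucosidase GAA, −0.19 for the α-mannosidase MAN2B1 and −0.39 for HEXA, the α subunit of β-hexosaminidase. The signs for GAA and MAN2B1 change with a KO library left out. HEXA differed more in FPKM, at 8.87 and 6.32 in the KO libraries and 13.4 in WT, a change of −0.76 on the log2(FPKM + 1) scale.

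ARSB, the sulfatase of dermatan sulfate, had 883 and 894 counts in the KO libraries and 609 in WT, or 7.13 and 7.91 FPKM in the KO libraries and 5.33 FPKM in WT (log2 fold change 0.49, SE 0.19, adjusted p = 0.179 by edgeR). ARSA, the sulfatase of sulfatide, had a log2 fold change of −0.11. ASAH1, the acid ceramidase, had 886 and 748 counts in the KO libraries and 464 in WT. Its levels were 12.6 and 10.8 FPKM in the KO libraries and 7.48 FPKM in WT. Both KO libraries were above WT, and the difference missed the threshold narrowly (log2 fold change 0.75, SE 0.20, adjusted p = 0.0502 by edgeR, and 0.0907 by DESeq2). It was the largest positive change among the 29 genes tested.

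Beyond these genes, 8 further lists of lysosomal genes held 116 genes, of which 102 were tested. In these lists 1 gene was called lower and 3 higher, or 0.98% and 2.94% of those tested, and 8 passed the adjusted p alone (7.84%). Of all tested genes, 2.95% were called lower, 1.83% were called higher and 6.88% passed the adjusted p, so the share past the adjusted p was near the background. The median log2 fold change over the lists was 0.13.

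The gene called lower was CTSS, the cysteine cathepsin that makes the last cut of the invariant chain in antigen-presenting cells and that interferon-γ induces. It had 212 and 340 counts in the KO libraries, against 3060 in WT, or 2.08 and 3.88 FPKM in the KO libraries and 40.0 FPKM in WT. CTSS was lower by a factor of 11.5 in KO (log2 fold change −3.52, SE 0.25, adjusted p = 1.58e-05 by edgeR), a larger change than in any of the 29 genes. The 3 called higher were SUMF1, SLC17A5 and MITF. SUMF1, which activates sulfatases, had 792 and 568 counts in the KO libraries and 307 in WT (log2 fold change 1.08, SE 0.24, adjusted p = 0.0212 by edgeR). SLC17A5, which exports sialic acid from the lysosome, had 465 and 334 counts in the KO libraries and 152 in WT (log2 fold change 1.33, SE 0.28, adjusted p = 0.0183 by edgeR). MITF, a relative of TFEB, had 152 and 116 counts in the KO libraries and 37 in WT (log2 fold change 1.79, SE 0.43, adjusted p = 0.0334 by edgeR, and 0.0681 by DESeq2). For the relatives of MITF that act on CACGTG, the log2 fold change was 0.89 for TFEB (adjusted p = 0.166 by edgeR) and 0.18 for TFE3 (adjusted p = 0.622 by edgeR).

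CREG1, PPT1 and OSTM1 passed the adjusted p at under 2-fold, with log2 fold changes of 0.84, 0.71 and 0.76, and so did ACP2, lysosomal acid phosphatase, with −0.91 (adjusted p = 0.0263 by edgeR, and 0.0621 by DESeq2). Of 18 subunits of the proton pump that were tested, 15 had a positive log2 fold change, beside 7753 of all 15483 genes tested. Their median was 0.24, and 0 passed the adjusted p by edgeR, with 2 at an unadjusted p under 0.05 and 0 by DESeq2. Of 18 genes that sort enzymes to the lysosome, 0 passed by edgeR, with 1 at an unadjusted p under 0.05 and 0 by DESeq2, at a median of −0.07. The cystatins, which inhibit cysteine cathepsins, included CST3 at 0.13 and CSTB at 0.36, and 0 of 3 tested passed by edgeR, at an unadjusted p under 0.05 or by DESeq2.

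**Figure D4:**
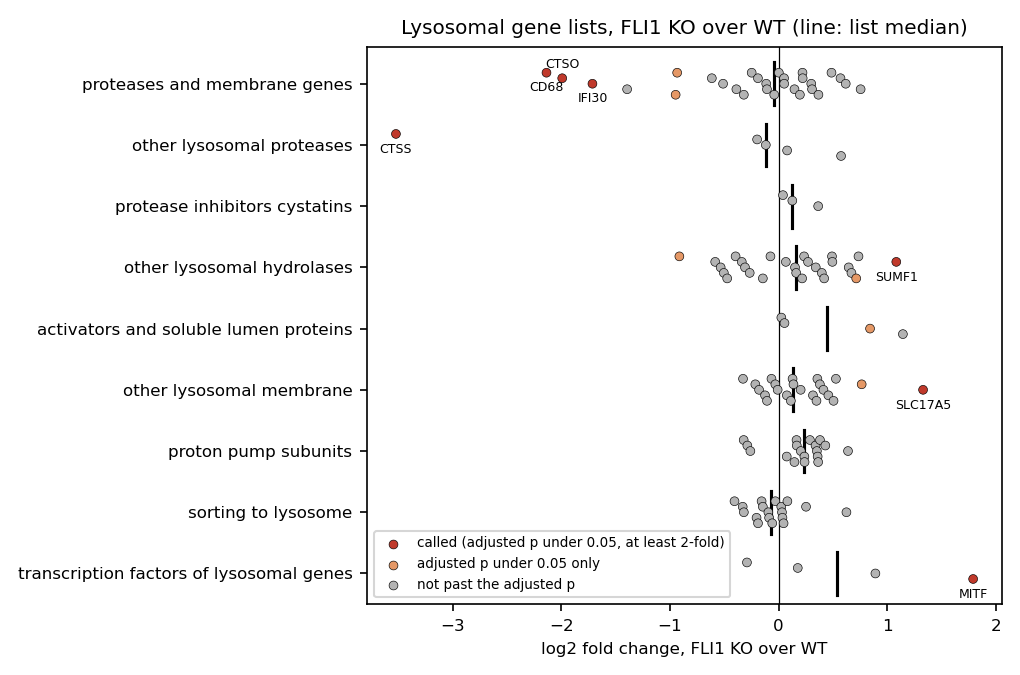
Log2 fold change, KO over WT, of every tested gene in 9 lists, the proteases and membrane genes in the top row and 8 further lists of lysosomal genes under it. Each point is 1 gene, red where called, orange where past the adjusted p only and grey otherwise, and the short vertical line is the list median. CTSS stands alone at −3.52, the called genes of the top row lie between −2.14 and −1.71, and the medians of the proton pump and sorting lists are 0.24 and −0.07.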

How the data were processed

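Poly-A RNA was sequenced from HK1 cells in 3 libraries. The KO1 column was taken as sgFLI1-1 and the KO2 column as sgFLI1-2, from the shared number alone. Reads were trimmed with fastp (0.23.2) and aligned with HISAT2 (2.0.4), and transcripts were quantified with StringTie (1.3.4d) on GRCh38.p12, per the labels. The authors deposited whole-number counts per gene, not normalized, and FPKM for the same genes. The counting tool and its use of strand are not given in the sources used here, so reads of genes that overlap, on either strand, may be divided wrongly. The table held 61550 genes and 2 empty lines. Coordinates are those of the deposited table, exon overlaps come from GENCODE v44 and promoters from RefSeq.

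Counts were tested with edgeR (4.0.16, R 4.3.3) by its quasi-likelihood test, two-sided, after TMM scaling (factors 0.9917 and 1.0071 for the KO libraries and 1.0013 for WT) and filterByExpr with a minimum count of 10. The fit over 15483 genes had 1 residual degree of freedom, with the spread of the lone WT library taken to equal that of the KO pair. Benjamini-Hochberg adjustment ran over all genes tested, and calls needed an adjusted p under 0.05 together with a 2-fold change. P-values measure only the spread between these libraries, which may be technical. Intervals per library are exact binomial and cover counting error only. DESeq2 (1.42.0), other filters and scalings, log2(FPKM + 1) and log2(FPKM + 0.1), and leaving out each KO library were alternatives.

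Members and lists were chosen with earlier results of these data known. Named in full were IFI30, LAMP3, CD68, each member called or past the adjusted p, and the most abundant member of each role by mean FPKM; of the other lists, up to 3 called genes and CTSS. The genes past the adjusted p alone in the further lists, TFEB, TFE3, the cystatins and the single cell type markers given were picked after their values were seen. Of 189 listed symbols, 1 was matched by an older symbol.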

Additional observations from a re-analysis of the deposited data

How the results depend on the processing

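No paired analysis was possible because WT has 1 library, so no replicate number forms more than 1 pair. Of 29 genes tested, the 3 called lower by edgeR became 0 without a filter on low counts, as did the 5 past the adjusted p and the 1 lower and 3 higher genes of the further lists. There the adjusted p by edgeR was 0.0746 for IFI30, 0.137 for CD68 and CTSC, 0.204 for CTSO, 0.277 for CTSL and 0.0758 for CTSS, with nearly the same fold changes, over a larger set of genes. At 1.5-fold in place of 2-fold, 5 were called lower. A size rule on FPKM, at least 2-fold lower in both KO libraries, was applied to all 31 genes and also took 5. These were not the same genes, because it took LAMP3 and the untested CTSF in place of CTSC and CTSL. With 1 KO library left out, the count lower by size was 4 to 5, that in the further lists was 2 each time, and the median log2 fold change without IFI30, LAMP3 and CD68 was 0.00488 to 0.0593. That median was 0.0403 with a minimum of 50 counts, 0.0542 by DESeq2, 0.0900 on log2(FPKM + 1) and 0.0944 on log2(FPKM + 0.1), against 0.0256. The summed level of the 31 genes had a log2 ratio of KO to WT of −0.173, which was −0.282 without the most abundant gene and 0.00800 without IFI30, the last chosen after seeing the data. LAMP1 changed sign to −0.00776 with a minimum of 50 counts. Without sgFLI1-1, the sign changed for LAMP1 (−0.0163), TPP1 (−0.0517) and GAA (0.0268), and without sgFLI1-2 for CTSZ (0.0336) and MAN2B1 (0.0230). CTSD passed the adjusted p by DESeq2 (0.0164) and with median-of-ratios size factors (0.0381), and ASAH1 with the second of these (0.0359). CD68 lost its call with its overlapping gene added (adjusted p = 0.0695 by edgeR). Apart from the changes in the filter and in sums, the cause was not tested. Counts of under 100, in the KO libraries for CTSO and CD68 and in every library for LAMP3 and CTSK, limit the precision of their values.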
